A study of Bos taurus with 20 samples.

Results

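Cold storage was followed in neck muscle of cows that had received growth-promoting hormones, by comparing 5 samples taken at storage day 14 with 5 taken at day 0. The samples were chosen by their titles and treatment labels, which placed 10 of the 20 arrays of the series in this comparison. The 5 treated animals, DE27, DE29, DE30, DE31 and DE32, each gave 1 sample per day. The oestrogen estradiol had been injected into their muscle in 6 weekly doses of 5 mg per animal, and dexamethasone, which acts like the body's glucocorticoids, had been fed for 31 days at a daily 0.4 mg per animal. The meat was collected at a slaughterhouse and kept under vacuum at 4 °C. The labels give neither the age of the cows nor the muscle beyond neck muscle. A further 5 untreated control cows, stored in the same way, serve here only to set the treated change beside theirs. Both treated groups share the hormone treatment, so the storage change itself holds no treatment contrast.

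Muscle keeps its RNA for some time after slaughter, but oxygen supply has ended, glycogen is turned into lactate and the tissue acidifies. Calpains and other proteases then act on the sarcomere, the contractile unit built from actin, myosin and the giant protein titin, which is part of how meat becomes tender. Transcripts can be degraded at different rates during this time, and cells that remain alive may still make new ones. A change in level on an array therefore gives the balance of these processes and not either of them. In a bulk sample, fewer cells of a type and less RNA per cell cannot be told apart.

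Each array measured RNA labelled with 1 dye on a bovine oligonucleotide array. Signal is given here as log2 of the processed spot signal after each array was centred on its own 75th percentile, so every change is relative to the other probes of the array. Before centring, that percentile stood at 719, 802, 900, 949 and 745 at day 0 in DE27, DE29, DE30, DE31 and DE32, and 419, 334, 451, 325 and 368.75 at day 14. All 5 animals had the lower value at day 14, by a mean log2 difference of -1.12 ± 0.29 (SD, n = 5; two-sided exact sign-flip permutation p = 0.063, the smallest that 5 animals can give; adjusted p = 0.125 over 6 array measures). Relative to 7 spike-in probes, which report RNA added in the labelling, the difference was -0.96 ± 0.50 (SD, n = 5; exact permutation p = 0.063). Well above background were 64.6% to 67.9% of spots at day 0 and 58.4% to 66.8% at day 14.

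Changes of animal DE27 stood apart from the others. Over the 15431 probes tested, the change in DE27 correlated with that in the other 4 animals at r = 0.13 to 0.30, while the other 4 correlated with each other at r = 0.49 to 0.70. The day 0 array of DE27 was the only treated array on slide 6, which was also the only slide scanned on the third scan day. The day 14 arrays of DE27 and DE29 shared slide 2 and the first scan day. Of the treated day 0 arrays only that of DE29 was scanned on the first scan day. Slide 5, with both arrays of DE32, was the only slide that held both days of treated muscle. With the slide as a random block in limma, 2685 probes were higher and 1780 lower, against 2743 and 1820 without it. Every slide but slide 5 held treated arrays of a single day, so this fit can hardly separate slide from storage day.

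Muscle identity was checked first. All 10 skeletal muscle fibre markers on the array were well above background on all 10 treated arrays, and so were 18 of 18 endothelial, 16 of 16 smooth muscle and pericyte and 25 of 29 fibroblast and matrix markers. Of the markers for blood and immune cells, 13 of 18 on the array for macrophages, 8 of 18 for lymphocytes, 4 of 10 for neutrophils and 6 of 11 for erythrocytes were above background throughout.

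Storage changed the relative level of a large part of the transcripts. In limma with Benjamini-Hochberg adjustment over all tested probes, 2743 probes (17.8%) were higher and 1820 (11.8%) lower at day 14, and 6455 had an unadjusted p under 0.05. Of these called probes, 3953 changed the same way in all 5 animals. A change of at least 4-fold was measured for 225 of the higher and 32 of the lower probes. Where each gene was represented by its brightest tested probe, 1568 of 11233 named genes (14.0%) were higher and 1486 (13.2%) lower, around a median log2 change of 0.03. These percentages are the background against which the gene groups below are read. Without DE29, DE31 or DE32 the higher probes numbered 1757, 1616 and 1547 and the lower ones 917, 886 and 881. Without DE27 there were 3330 and 2374. Where counts of a gene group are given with 1 animal left out, they run in the order DE27, DE29, DE30, DE31, DE32. Centring on the 7 spike-ins shifts every change by -0.96, so each rise smaller than that lies below 0 on that scale. It moved the median of all named genes to -0.93, with 329 probes higher and 7752 lower, and a rise here is a higher level relative to the array's 75th percentile. Of the genes named below, 12 with a change below 0 had one above 0 after normexp background correction: ADIPOQ, ATF4, BCO2, EHHADH, EPDR1, FBXO31, HPRT1, HSP90AB1, MRPS23, PLIN1, TSC22D3 and ZFP91. In a fit on the second scan day alone, which holds both days of DE30, DE31 and DE32, 2395 probes were higher and 1403 lower in limma, and of the 105 named genes called over all arrays 78 passed and 27 did not.

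The direction of change went with the brightness of the probe. In the dimmest of 10 equal bins of the tested probes the median log2 change was 0.56, with 25.8% called higher and 5.50% lower. In the brightest bin the median was -0.09, with 7.78% higher and 13.0% lower. Probes with no gene name made up 33.5% of the higher but 12.5% of the lower calls. Probes designed to curated mRNA records were called lower in 17.0% and higher in 10.1% of cases, and those to predicted records lower in 11.5% and higher in 19.2%. Dim probes and unnamed probes overlap, with a median log2 signal of 6.67 for the unnamed against 7.79 for all tested probes, and their separate parts in this pattern were not tested.

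**Figure D1:**
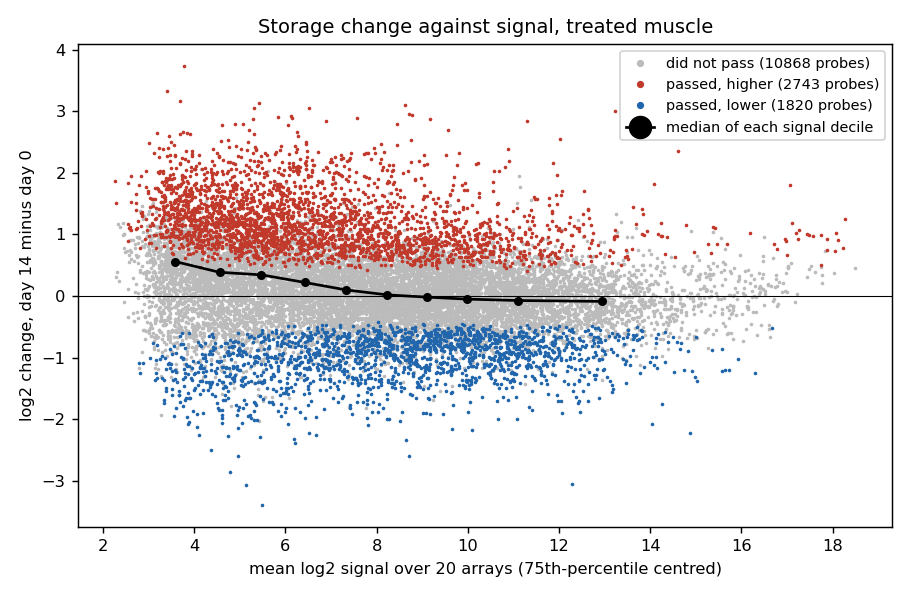
Log2 change from day 0 to day 14 in treated muscle (vertical) against mean log2 signal over 20 arrays (horizontal), 1 point per tested probe. Red points passed as higher (2743), blue as lower (1820), grey did not pass; the black line joins the medians of signal deciles, from 0.56 in the dimmest to -0.09 in the brightest.

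Relative to the array's other probes, transcripts of the contractile fibre were among the largest changes in both directions. TTN encodes titin, the spring of the sarcomere. Its log2 signal was 12.13, 11.80, 12.39, 11.73 and 11.72 at day 0 and 14.23, 14.50, 15.11, 15.64 and 15.28 at day 14 in DE27, DE29, DE30, DE31 and DE32. The days did not overlap, and TTN was 7.99-fold higher at day 14 (log2 change 3.00 ± 0.28 SE, n = 5 per day, limma adjusted p = 0.00015). A second titin probe, dimmer by its mean signal (11.24 against 13.22), had a change of 0.30 ± 0.53 that did not pass (limma adjusted p = 0.704), so the value belongs to 1 probe and not to the whole transcript.

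ACTA1, the skeletal actin of the thin filament, had 14.77, 16.19, 16.62, 16.13 and 16.69 at day 0 and 17.20, 18.50, 17.59, 18.22 and 17.87 at day 14. All day 14 samples lay above all day 0 samples, a 3.48-fold rise (1.80 ± 0.37 SE, limma adjusted p = 0.00518). MB, the oxygen store myoglobin, was 17.45, 18.24, 17.27, 17.81 and 17.86 at day 0 and 18.81, 19.36, 18.91, 18.93 and 18.84 at day 14. The gene was 2.37-fold higher with no overlap (1.24 ± 0.21 SE, limma adjusted p = 0.00196). The slow myosin heavy chain MYH7 was 1.67-fold higher (0.74 ± 0.16 SE, limma adjusted p = 0.00658; -0.22 with centring on the spike-ins). The fast heavy chain MYH1 was 1.91-fold higher by its brighter probe (0.93 ± 0.24 SE, limma adjusted p = 0.0154; -0.032 with the spike-ins), while its dimmer probe had -0.47 ± 0.40 and did not pass. CASQ1, the calcium store protein of fast fibres, rose as well (2.03 ± 0.36 SE, limma adjusted p = 0.00265).

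Other parts of the same structure fell. PDLIM3, a Z-disc protein that binds alpha-actinin, had 13.45, 13.46, 12.77, 13.59 and 13.12 at day 0 and 11.43, 8.58, 11.39, 10.91 and 8.81 at day 14. The gene was 8.30-fold lower (-3.05 ± 0.56 SE, limma adjusted p = 0.00289), with a spread at day 14 (SD 1.41) larger than at day 0 (SD 0.33). MYOT, the Z-disc protein myotilin, was 15.51, 15.94, 16.26, 16.00 and 15.39 at day 0 and 14.67, 12.74, 14.78, 13.23 and 12.59 at day 14. The gene was 4.65-fold lower with no overlap (-2.22 ± 0.44 SE, limma adjusted p = 0.00416). LMOD2, leiomodin, which helps actin filaments to grow, was 4.23-fold lower (-2.08 ± 0.42 SE, limma adjusted p = 0.00463). RYR1, the calcium release channel, fell (-1.71 ± 0.43 SE), and CASQ2, the calsequestrin of slow fibres and heart, fell in 4 of 5 animals (-1.89 ± 0.63 SE, limma adjusted p = 0.0406, and 0.0601 with the animal as a block). As groups, 5 of 10 measured skeletal muscle fibre markers rose and 1 fell (median 0.58). Of 30 sarcomere and Z-disc genes 3 rose (10.0%, beside 14.0% of all genes) and 4 fell (13.3%, beside 13.2%). Their median was -0.17, and 8 were lower without DE27. Of 12 fast fibre genes 2 rose (16.7%, beside 14.0% of all genes) and 0 fell, with a median of 0.38. Of 12 slow fibre genes 2 rose (16.7%) and 1 fell (8.33%, beside 13.2%), with a median of 0.46. After quantile normalization the fast and slow medians were below 0, at -0.075 and -0.033. With centring on the spike-ins the skeletal muscle fibre median was -0.38, where that of all named genes was -0.93. The creatine kinase CKM (-0.63 ± 0.35 SE), desmin DES (-0.59 ± 0.30 SE) and the fast troponin TNNT3 (0.07 ± 0.65 SE) did not pass.

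**Figure D2:**
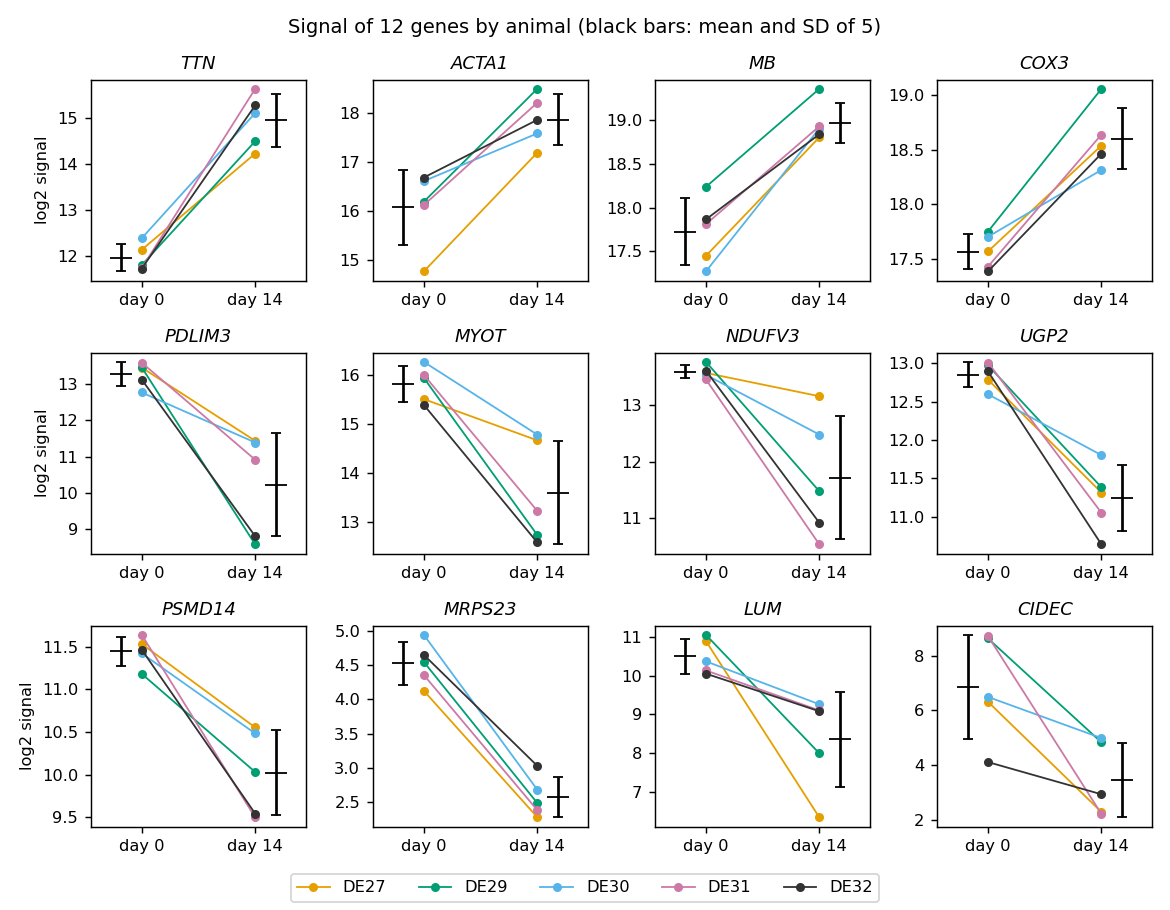
Log2 signal (75th-percentile centred) of 12 genes at day 0 and day 14, 1 coloured line per treated animal, with the mean and SD of 5 as black bars. TTN, ACTA1, MB and COX3 were higher at day 14 in all 5 animals and the other 8 genes lower in all 5; each panel has its own vertical axis.

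Mitochondrial transcripts divided by the genome that encodes them. All 13 genes of the mitochondrial genome, which encodes core subunits of the respiratory chain, had a change above 0, and 7 of 13 passed as higher with 0 lower (median 0.95). COX3, a core subunit of cytochrome c oxidase, was 17.57, 17.75, 17.70, 17.43 and 17.39 at day 0 and 18.54, 19.05, 18.32, 18.64 and 18.46 at day 14. The days did not overlap and COX3 was 2.04-fold higher (1.03 ± 0.18 SE, limma adjusted p = 0.00217). ATP6, of the ATP synthase, rose by a similar size (1.0 ± 0.19 SE, limma adjusted p = 0.00306), and so did cytochrome b, CYTB (0.98 ± 0.22 SE, limma adjusted p = 0.00707). With the animal as a block 10 of the 13 passed as higher. The median was 0.70 within the first scan day, which held only 1 treated day 0 array (DE29), and 0.90 within the second. It was -0.01 with centring on the spike-ins, against -0.93 for all named genes.

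Respiratory chain genes of the nucleus fell more often than they rose. Of 37 complex I genes 0 rose and 10 fell, with a median of -0.50 and 31 below 0. NDUFV3, an accessory subunit of complex I, was 13.57, 13.77, 13.54, 13.46 and 13.61 at day 0 and 13.16, 11.47, 12.48, 10.53 and 10.92 at day 14. Every day 14 sample was below every day 0 sample, with DE27 the closest, and NDUFV3 was 3.68-fold lower (-1.88 ± 0.43 SE, limma adjusted p = 0.00843). NDUFB5 (-1.42 ± 0.30 SE) and NDUFC2 (-1.17 ± 0.28 SE), further complex I subunits, fell in all 5 animals. Of 26 genes of complexes II to IV 0 rose and 6 fell, among them UQCRB of complex III (-1.82 ± 0.46 SE), COX5A of complex IV (-1.31 ± 0.36 SE) and SDHC of complex II (-1.16 ± 0.30 SE). Of 16 ATP synthase genes 4 fell, with ATP5PB at -1.48 ± 0.48 SE, ATP5PF at -1.08 ± 0.33 SE and ATP5F1A at -0.88 ± 0.28 SE, and 2 rose, ATP5MF (0.93 ± 0.24 SE) and ATP5MK (0.72 ± 0.20 SE). With the animal as a block 6 complex I genes and 1 ATP synthase gene passed as lower, and ATP5PB (limma adjusted p = 0.0569), ATP5PF (limma adjusted p = 0.0573) and ATP5MK (limma adjusted p = 0.0513) did not. Within DE27 the median change of the complex I list was 0.41, while it was -0.70, -0.09, -1.08 and -0.94 in DE29, DE30, DE31 and DE32. For complexes II to IV (median -0.24) the values in that order were 0.34, -0.37, 0.08, -1.08 and -0.79. For ATP synthase (median -0.50) they were 0.56, -0.89, -0.17, -1.15 and -1.03. With 1 animal left out, 20, 3, 8, 2 and 2 complex I genes passed as lower. The same fits gave 10, 0, 7, 0 and 0 genes of complexes II to IV and 9, 0, 2, 0 and 0 ATP synthase genes, so these counts rose without DE27 and were far smaller without DE29, DE31 or DE32.

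Other nuclear genes of mitochondria were also lower in part. Mitochondrial ribosomal proteins, which build the organelle's own ribosome, had 23 of 70 lower (32.9%) and 1 higher, MRPS28, with a median of -0.40. MRPS23 was 4.13, 4.55, 4.94, 4.36 and 4.65 at day 0, and at day 14, where it was not well above background on any array, 2.28, 2.49, 2.68, 2.39 and 3.03. The fall was at least 2.29-fold against the background level (-1.95 ± 0.21 SE, limma adjusted p = 0.000194). MRPS23 was above 0 after normexp background correction, so this bound holds for the processed signal only. MRPL50 (-1.55 ± 0.28 SE) and MRPS21 (-1.0 ± 0.17 SE) were well above background on both days. Of 24 fatty acid oxidation genes 7 fell and 0 rose (median -0.53), led by the electron carriers ETFDH (-1.75 ± 0.46 SE) and ETFA (-1.36 ± 0.40 SE), and by DECR1, which handles unsaturated fatty acids (-1.0 ± 0.28 SE). Of 15 citrate cycle genes 4 fell (26.7%), IDH3A (-1.72 ± 0.41 SE), DLST (-1.21 ± 0.25 SE), FH (-0.86 ± 0.28 SE) and DLD. The 2 that rose (13.3%, beside 14.0% of all genes) were OGDH (0.87 ± 0.26 SE) and PDHA1 (0.87 ± 0.25 SE). With the animal as a block 15 mitochondrial ribosomal, 2 fatty acid oxidation and 2 citrate cycle genes passed as lower, and ETFA (limma adjusted p = 0.055), FH (limma adjusted p = 0.0716) and DLD (limma adjusted p = 0.0626) did not. Within DE27 the medians of these lists were above 0, at 0.26, 0.47 and 0.37. With 1 animal left out the mitochondrial ribosomal genes lower numbered 36, 11, 16, 8 and 10. Those of fatty acid oxidation numbered 10, 0, 4, 0 and 0, and those of the citrate cycle 8, 1, 3, 1 and 1.

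Enzymes of glycogen use and glycolysis, the pathway that runs on in muscle after slaughter, were mixed. UGP2, which makes the glucose donor for glycogen, was 12.79, 12.98, 12.60, 13.01 and 12.90 at day 0 and 11.31, 11.38, 11.80, 11.05 and 10.64 at day 14. The gene was 3.06-fold lower with no overlap (-1.62 ± 0.22 SE, limma adjusted p = 0.000559). The phosphorylase kinase subunits PHKG1 (-1.90 ± 0.38 SE) and PHKB (-1.27 ± 0.36 SE) fell as well, and in all 5 of 12 glycogen genes fell and 0 rose (median -0.63; 3 lower with the animal as a block, 2 within the second scan day alone, and 5, 2, 4, 2 and 2 with 1 animal left out). With 1 animal left out, 4, 2, 4, 1 and 1 of 14 glycolysis genes fell. Over all animals 3 fell (21.4%, beside 13.2% of all genes) and 2 rose (14.3%, beside 14.0%). The falls were of PGK1 (-1.38 ± 0.25 SE), PFKM, the muscle phosphofructokinase (-1.24 ± 0.33 SE), and LDHA, which makes lactate (-1.20 ± 0.33 SE, lower in 4 of 5 animals), and the rises of ALDOA (0.77 ± 0.19 SE) and TPI1 (0.51 ± 0.17 SE, limma adjusted p = 0.0405, and 0.0807 with the animal as a block). GAPDH is often used as a reference. Its brighter probe had 0.34 ± 0.20 SE and did not pass (limma adjusted p = 0.225), and its dimmer probe fell in all 5 animals (-1.25 ± 0.34 SE, limma adjusted p = 0.0182).

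**Figure D3:**
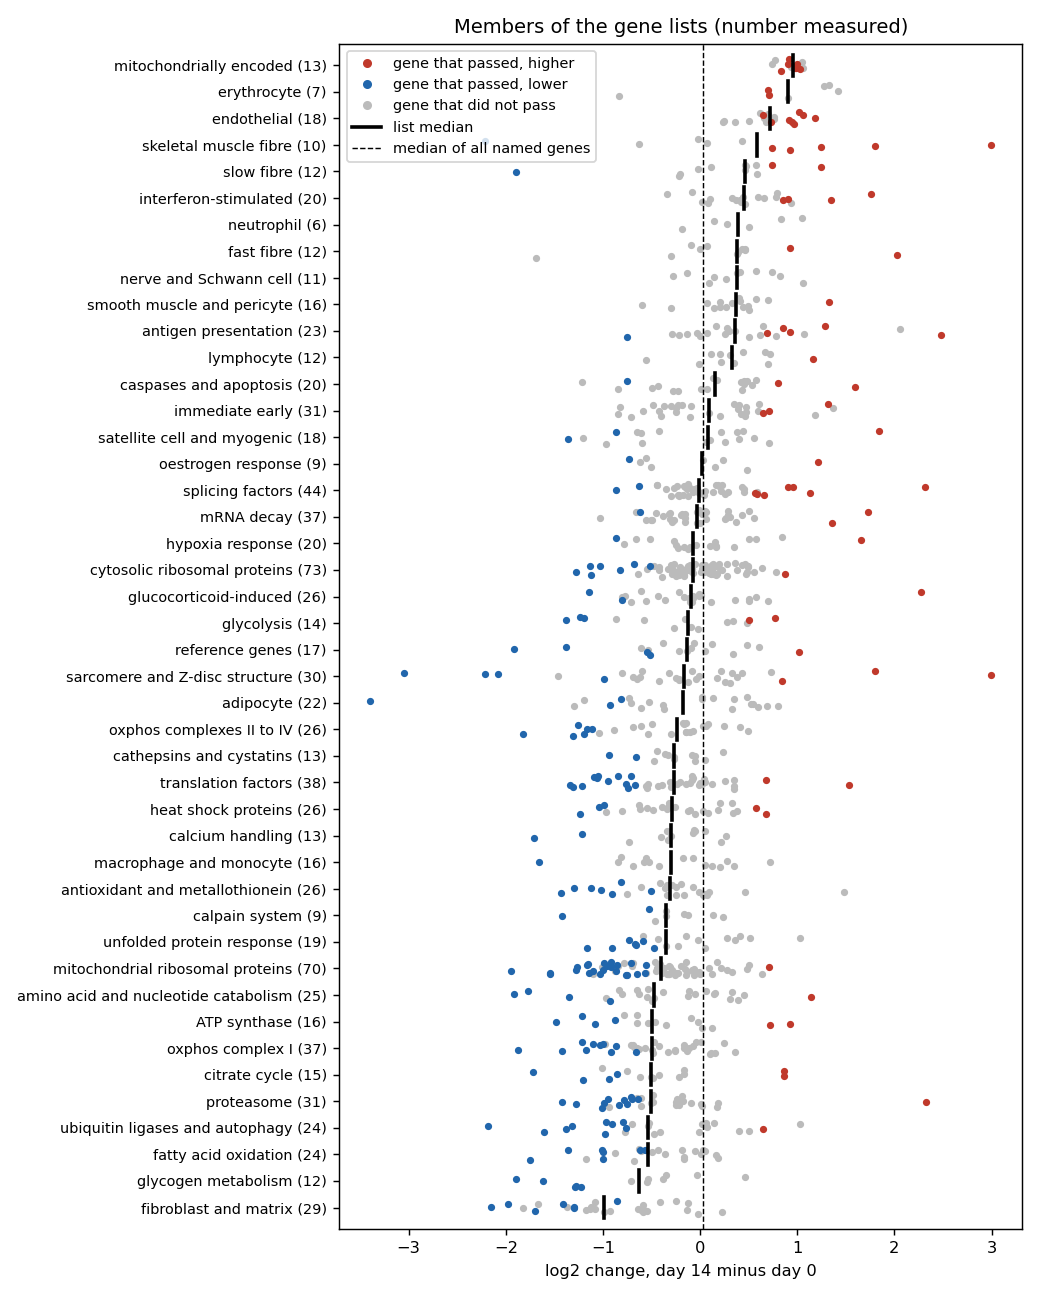
Log2 change from day 0 to day 14 in treated muscle for the members of 44 gene lists, 1 point per measured gene by its brightest probe, with the list median as a black bar and the median of all named genes (0.03) as a dashed line. Mitochondrially encoded genes lie highest (median 0.95) and fibroblast and matrix genes lowest (median -0.99) under 75th-percentile centring; with centring on the spike-ins both medians are below 0.

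Genes of protein turnover fell more often than they rose. The proteasome, which degrades ubiquitin-tagged proteins, had 11 of 31 subunits lower (35.5%) and 1 higher, with a median of -0.51. PSMD14, the deubiquitinase of its lid, was 11.53, 11.18, 11.42, 11.64 and 11.46 at day 0 and 10.55, 10.03, 10.48, 9.50 and 9.54 at day 14. The gene was 2.69-fold lower with no overlap (-1.43 ± 0.24 SE, limma adjusted p = 0.00177). PSMA1 (-1.28 ± 0.24 SE) and PSMA5 (-1.01 ± 0.19 SE), of the core ring, fell with it. The exception was PSMA7 of the same ring, at 6.93, 6.16, 7.0, 6.21 and 6.20 on day 0 and 8.41, 8.83, 9.36, 9.07 and 8.47 on day 14, a 5.03-fold rise in all 5 animals (2.33 ± 0.26 SE, limma adjusted p = 0.000215). With 1 animal left out 17, 4, 11, 5 and 3 proteasome genes passed as lower, and the median of the list within DE27 was 0.08.

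In the list of ubiquitin ligases and autophagy 9 of 24 fell and 1 rose (median -0.53; 12, 6, 7, 5 and 4 lower with 1 animal left out). UBB, a polyubiquitin gene, was 2.60-fold lower (-1.38 ± 0.20 SE, limma adjusted p = 0.000977). The F-box protein FBXO31 (-1.60 ± 0.27 SE) and the autophagosome protein MAP1LC3B (-1.32 ± 0.25 SE) fell in all 5 animals. The FBXO31 change was above 0 after normexp background correction. The muscle-wasting ligases did not pass, with FBXO32 at 0.50 ± 0.20 SE and TRIM63 at -0.77 ± 0.37 SE.

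Among the proteases linked to tenderness, CAPN3, the muscle calpain that binds titin, was 9.94, 8.88, 10.02, 9.42 and 9.45 at day 0 and 9.44, 6.92, 8.91, 7.90 and 7.43 at day 14. Each animal was lower at day 14, while DE27 and DE30 at day 14 lay inside the day 0 range, and the mean was 2.68-fold lower (-1.42 ± 0.45 SE, limma adjusted p = 0.0326). CAST, the calpain inhibitor calpastatin, was 1.44-fold lower (-0.52 ± 0.17 SE, limma adjusted p = 0.0417, and 0.057 with the animal as a block). The calpains CAPN1 (0.14 ± 0.15 SE) and CAPN2 (-0.13 ± 0.17 SE), and the cathepsins CTSB (-0.27 ± 0.14 SE) and CTSD (0.23 ± 0.14 SE) did not pass. Of the lists they belong to, 2 of 9 calpain genes fell (22.2%, beside 13.2% of all genes) and 0 rose. Of 13 cathepsin and cystatin genes 2 fell (15.4%) and 0 rose. The calpain count was 1 without DE27 and 0 without each of the other 4 animals.

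Translation genes were lower in part. Of 38 translation factors 12 fell (31.6%) and 2 rose, with a median of -0.27, and 13, 9, 12, 7 and 6 fell with 1 animal left out. EIF5B, which joins the ribosomal subunits (-1.33 ± 0.25 SE), BTF3 (-1.30 ± 0.22 SE) and EIF2S1, a subunit of the factor that brings the initiator tRNA (-1.09 ± 0.16 SE), fell in all 5 animals. A dimmer EIF2S1 probe had -0.33 ± 0.19 SE and did not pass. Cytosolic ribosomal proteins had 7 of 73 lower (9.59%, or 11 genes without DE27) and 1 higher, beside 13.2% lower of all genes, with a median of -0.08. Those that fell included RPL37A (-1.28 ± 0.27 SE), RPL30 (-1.12 ± 0.19 SE) and RPS26 (-1.03 ± 0.21 SE).

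Stress genes gave few rises. In the unfolded protein response, which senses misfolded protein in the endoplasmic reticulum, 7 of 19 fell and 0 rose, among them its transcription factors ATF4 (-1.17 ± 0.25 SE) and XBP1 (-0.73 ± 0.19 SE) and HERPUD1 (-0.91 ± 0.23 SE). With the animal as a block 4 fell and 1 rose, and with 1 animal left out 5, 2, 4, 1 and 2 fell. The median of the list was -0.35, and 0.11 after normexp background correction, where the ATF4 change was also above 0. Of 26 antioxidant genes 7 fell (8, 4, 6, 3 and 2 with 1 animal left out) and 0 rose, with SOD1 (-1.30 ± 0.23 SE), mitochondrial peroxiredoxin PRDX3 (-1.43 ± 0.34 SE) and NQO1 (-1.12 ± 0.21 SE). Of 26 heat shock proteins 3 were lower (11.5%, beside 13.2% of all genes) and 2 higher (7.69%, beside 14.0%). The lower ones were HSPA9 (-1.04 ± 0.27 SE), HSPB7 (-1.24 ± 0.43 SE) and HSP90AB1 (-0.99 ± 0.29 SE). The HSP90AB1 change was above 0 after normexp background correction. With 1 animal left out 7, 0, 1, 0 and 0 heat shock genes were lower, and with the animal as a block 4 were lower and 1 higher. The inducible HSPA1A (-0.05 ± 0.50 SE) and DNAJB1 (0.38 ± 0.70 SE) did not pass. Neither did the hypoxia factor HIF1A (-0.04 ± 0.21 SE).

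Of 31 immediate early genes, which cells switch on within minutes of a stimulus, 3 rose (9.68%, beside 14.0% of all genes) and 0 fell. With 1 animal left out 3, 3, 1, 2 and 1 rose. The median of the list was 0.09, at -0.36 within the first scan day, with its 1 treated day 0 array, and 0.28 within the second. EGR2 was 6.56, 6.93, 6.82, 6.57 and 6.35 at day 0 and 7.97, 7.99, 7.79, 8.14 and 7.94 at day 14. The days were separate in every animal, a 2.50-fold rise (1.32 ± 0.16 SE, limma adjusted p = 0.000374). DUSP2, a phosphatase of MAP kinases (0.71 ± 0.20 SE), and FOSB (0.65 ± 0.20 SE, with a second probe at 0.73 ± 0.21 SE) rose less, and both were below 0 with centring on the spike-ins. FOS (-0.30 ± 0.65 SE), JUN (0.60 ± 0.43 SE), EGR1 (-0.85 ± 0.72 SE), ATF3 (-0.25 ± 0.65 SE) and NR4A1 (0.21 ± 0.31 SE) did not pass, with SE up to 0.72 for EGR1. MYC had -0.82 ± 0.33 SE (limma adjusted p = 0.0812, and 0.0405 with the animal as a block).

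Of 44 splicing factors 7 rose (15.9%, beside 14.0% of all genes) and 2 fell (median -0.02). Leaving 1 animal out gave 5, 3, 3, 1 and 3 rises, and within the second scan day alone 2 did. HNRNPL, which binds pre-mRNA, rose 4.98-fold by its brighter probe (2.32 ± 0.26 SE, limma adjusted p = 0.000246), while a second probe of similar signal had 0.17 ± 0.21 SE and did not pass. SRSF7 (1.13 ± 0.29 SE) and SRSF5 (0.96 ± 0.26 SE) rose in all 5 animals, SRSF5 standing at -0.003 with centring on the spike-ins.

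Some immune genes rose, at shares not far from the 14.0% of all genes. Interferon-stimulated genes had 4 of 20 higher (20.0%) and 0 lower, with a median of 0.45, or -0.51 with centring on the spike-ins, where 0 were higher and 3 lower. The higher ones numbered 5, 1, 3, 2 and 2 with 1 animal left out. RSAD2, the antiviral enzyme viperin, was 7.01, 6.07, 6.01, 6.75 and 6.70 at day 0 and 7.24, 8.53, 7.28, 7.78 and 8.43 at day 14. The days did not overlap, and RSAD2 was 2.54-fold higher (1.34 ± 0.31 SE, limma adjusted p = 0.00877). HERC6 (1.76 ± 0.33 SE) rose in all 5 animals and GBP4 (0.85 ± 0.27 SE, limma adjusted p = 0.0326, and 0.0725 with the animal as a block) in 4. Of 23 antigen presentation genes 5 rose (21.7%) and 1, TAPBP, fell (median 0.36, or -0.60 with the spike-ins, where 1 was higher and 6 lower). The rises numbered 5, 2, 2, 4 and 2 with 1 animal left out. The class II genes BOLA-DYA, at least 3.60-fold higher since no day 0 array was well above background (2.49 ± 0.48 SE), and BOLA-DOA (1.28 ± 0.22 SE) and the immunoproteasome subunit PSMB8 (0.92 ± 0.28 SE) were among them.

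The cell type lists moved in different ways. Endothelial markers, from the lining of vessels, were above 0 for 18 of 18 genes, with 8 higher (44.4%), 0 lower and a median of 0.72. Their summed linear signal was 35800 to 47000 on the day 0 arrays and 56400 to 120000 on the day 14 arrays, without overlap. ENG, endoglin, was 13.06, 11.71, 12.10, 12.13 and 11.96 at day 0 and 13.44, 13.88, 12.71, 12.93 and 13.30 at day 14. It rose in all 5 animals, 2.08-fold in the mean (1.06 ± 0.29 SE, limma adjusted p = 0.0184), although DE27 at day 0 lay above 2 of the day 14 samples. TIE1, a receptor of the angiopoietin system (1.18 ± 0.32 SE), and EGFL7 (0.97 ± 0.25 SE) rose in all 5. Within the second scan day alone 2 of the 18 passed, and with 1 animal left out 10, 2, 4, 4 and 0. The endothelial median was -0.24 with centring on the spike-ins, against -0.93 for all named genes.

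Fibroblast and matrix genes had the lowest median of the lists (-0.99), with 7 of 29 lower (24.1%) and 0 higher, but the change differed between animals. LUM, the collagen-binding proteoglycan lumican, was 10.90, 11.06, 10.38, 10.14 and 10.06 at day 0 and 6.33, 7.99, 9.26, 9.10 and 9.08 at day 14. All day 14 samples were lower, with DE27 lowest, and LUM was 4.45-fold lower in the mean (-2.15 ± 0.51 SE, limma adjusted p = 0.0098). COL1A1, of type I collagen, had 14.75, 13.86, 12.79, 13.09 and 12.34 at day 0 and 11.17, 10.48, 12.04, 13.31 and 13.00 at day 14. The later sample was the lower one in DE27, DE29 and DE30 and the higher one in DE31 and DE32, so COL1A1 overlapped between days and did not pass (-1.37 ± 0.59 SE, limma adjusted p = 0.0998). The median of the list was -2.45 in DE27, -1.99 in DE29, -0.80 in DE30, 0.07 in DE31 and 0.29 in DE32. DE27 and DE29 are the animals whose day 14 arrays shared slide 2 and the first scan day. The day 0 array of DE29 was scanned on that day too. Within the first scan day the median was -1.97, and within the second it was -0.20 with 1 gene lower. Animal, slide and scan day cannot be told apart here, and no cause was tested. FBN1, fibrillin (-1.98 ± 0.47 SE), and MFAP5 (-1.70 ± 0.44 SE) were lower in all 5 animals. A dimmer FBN1 probe had -0.69 ± 0.29 SE and did not pass (limma adjusted p = 0.095). With the animal as a block 4 of the 29 fell, and with 1 animal left out 4, 0, 4, 9 and 5.

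**Figure D4:**
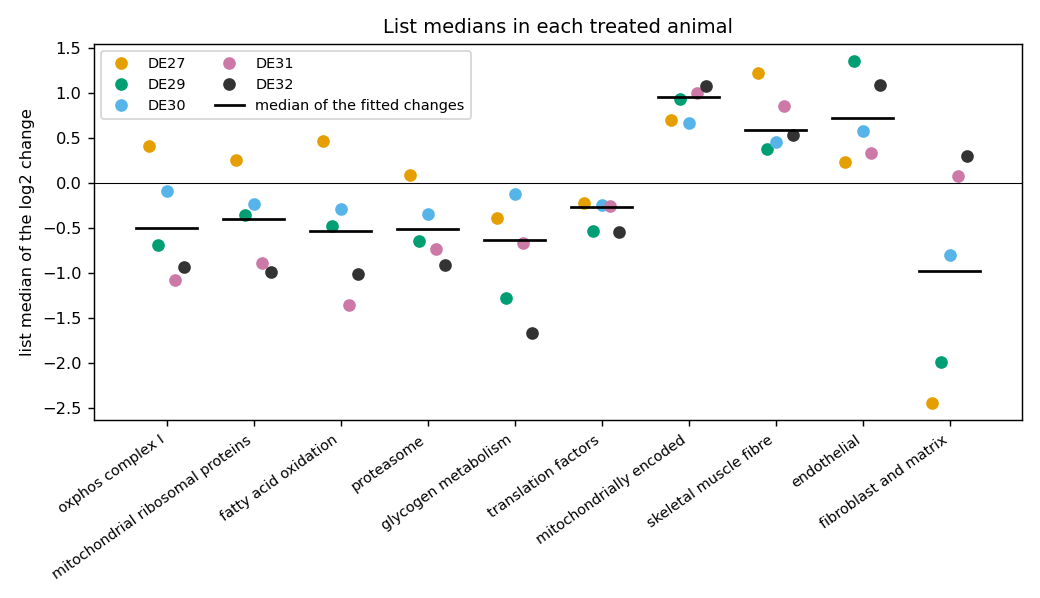
Median log2 change (vertical) of 10 gene lists in each treated animal (coloured points), with the median of the fitted changes as a black bar. DE27 lies above 0 for complex I (0.41) where the other 4 lie below, and fibroblast and matrix genes run from -2.45 in DE27 to 0.29 in DE32.

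Fat cell genes gave 3 of 22 lower (13.6%, beside 13.2% of all genes) and 0 higher, with 11 above and 11 below 0 and a median of -0.18, or 0.20 after normexp background correction. Leaving 1 animal out gave 3, 1, 1, 0 and 2 lower. GPAM (0.80 ± 0.58 SE) and PPARG (0.69 ± 0.26 SE) were above 0 and did not pass. CIDEC, a lipid droplet protein, was 6.32, 8.63, 6.49, 8.71 and 4.12 at day 0 and 2.30, 4.84, 4.99, 2.23 and 2.94 at day 14. The days overlapped, since DE32 was low at day 0, but each animal fell (-3.39 ± 0.88 SE, limma adjusted p = 0.015). CIDEC was well above background on only 2 of 5 day 14 arrays, so the size of this fall is uncertain. G0S2, which inhibits lipolysis (-0.93 ± 0.31 SE), and PLIN1, which coats lipid droplets (-0.81 ± 0.28 SE, limma adjusted p = 0.0443, and 0.0817 with the animal as a block), fell. The PLIN1 signal was low at day 14, from 2.92 to 3.77, and its change was above 0 after normexp background correction. ADIPOQ (-1.19 ± 0.73 SE) and FABP4 (-1.30 ± 0.97 SE) did not pass, and 0 of the 22 passed within the second scan day. Smooth muscle, macrophage, lymphocyte and erythrocyte markers had 1 of 16, 1 of 16, 1 of 12 and 2 of 7 past the threshold, and neutrophil and nerve markers 0 of 6 and 0 of 11. As higher, 4 erythrocyte markers and 1 neutrophil marker passed with the animal as a block.

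Hormone-related genes are of interest because the animals had been treated. Of 26 glucocorticoid-induced genes 2 fell (7.69%, beside 13.2% of all genes) and 1 rose (3.85%, beside 14.0%). The falls were of TSC22D3 (-1.14 ± 0.37 SE, limma adjusted p = 0.0391, and 0.0691 with the animal as a block) and KLF9 (-0.80 ± 0.23 SE, limma adjusted p = 0.0252, and 0.0558 with that block), and the rise of SESN1 (2.27 ± 0.39 SE). The TSC22D3 change was above 0 after normexp background correction. Without DE29 or DE32, 0 of the 26 passed as lower. PER1 (0.51 ± 0.34 SE), FKBP5 (0.70 ± 0.67 SE) and the receptors NR3C1 (0.15 ± 0.18 SE) and ESR1 (-0.51 ± 0.36 SE) did not pass. CCL2 (-0.82 ± 0.55 SE), DGAT2 (-0.61 ± 0.60 SE), CYP1A1 (0.25 ± 0.64 SE), IFIT3 (0.08 ± 0.39 SE), METTL21E (-0.81 ± 0.38 SE) and MSTN (-0.97 ± 0.75 SE) did not pass either. These SE, up to 0.75 for MSTN, leave room for changes that 5 animals could not show.

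Outside the lists, the largest rises were in genes of varied function. ASIP, a pigment signal protein that also affects fat, was 6.16, 7.31, 7.60, 6.93 and 6.88 at day 0 and 9.72, 10.34, 9.33, 10.35 and 9.94 at day 14. The groups were far apart, and ASIP was 7.79-fold higher (2.96 ± 0.29 SE, limma adjusted p = 0.000153). DLGAP1, a scaffold of synapses, rose in all 5 animals (3.17 ± 0.36 SE), but only 1 of 5 day 0 arrays was well above background, so the size of this rise is uncertain. TLR6, a receptor for bacterial lipopeptides (2.39 ± 0.26 SE), IL1RL1, the receptor of interleukin 33 (2.36 ± 0.43 SE), and the ubiquitin ligase RNF216 (2.53 ± 0.31 SE) rose in all 5 animals and were above background on all arrays. The same held for SLC22A9, an organic anion transporter (2.85 ± 0.50 SE), while POU5F1, a pluripotency factor (2.80 ± 0.45 SE), ZNF200 (2.52 ± 0.24 SE), GPATCH2L (2.50 ± 0.27 SE) and the testis glycerol kinase GK2 (2.38 ± 0.66 SE, limma adjusted p = 0.0195, and 0.0531 with the animal as a block) were above background on 3 or 4 of the day 0 arrays. A second GK2 probe had -0.94 ± 0.54 SE.

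Among the largest falls was GLRX2, the mitochondrial glutaredoxin, at 9.36, 10.17, 9.97, 10.49 and 9.94 on day 0 and 7.33, 7.19, 7.94, 7.29 and 7.20 on day 14. It was 6.04-fold lower with the smallest adjusted p of the named genes (-2.59 ± 0.23 SE, limma adjusted p = 0.000139). EHHADH, of peroxisomal fatty acid oxidation, was at least 3.83-fold lower and EPDR1 at least 5.06-fold lower, since neither was well above background on any day 14 array. Both were above 0 after normexp background correction, so these bounds hold for the processed signal only. MED22, of the Mediator complex (-3.06 ± 0.52 SE), ZFP91 (-2.27 ± 0.42 SE), the carotenoid oxygenase BCO2 (-2.30 ± 0.46 SE), CNST (-2.32 ± 0.40 SE) and SPATA2 (-2.39 ± 0.32 SE) fell in all 5 animals and were above background on 1 to 4 of the day 14 arrays. The changes of ZFP91 and BCO2 were also above 0 after normexp background correction. ITGB1BP2, the muscle protein melusin (-2.34 ± 0.55 SE), was above background throughout. A second SPATA2 probe had 0.19 ± 0.25 SE.

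Probes for one gene often disagreed on the storage change. For 835 genes with 2 tested probes, the changes of both probes in treated muscle correlated across genes at r = 0.22. In the same genes the brighter probe gave r = 0.86 between treated and control muscle, which come from different animals but shared slides and scan days. Where both probes were at a log2 signal of at least 8 (165 genes), the correlation was 0.26. Both probes passed for 92 genes, in the same direction for 66 and in opposite directions for 26, and only 1 probe passed for 351. These correlations run across genes, which are not independent replicates. The files used here give no position of a probe within its transcript, so that no cause of the disagreement was tested, and a value for a gene with 1 probe stands for the stretch that probe measures.

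**Figure D5:**
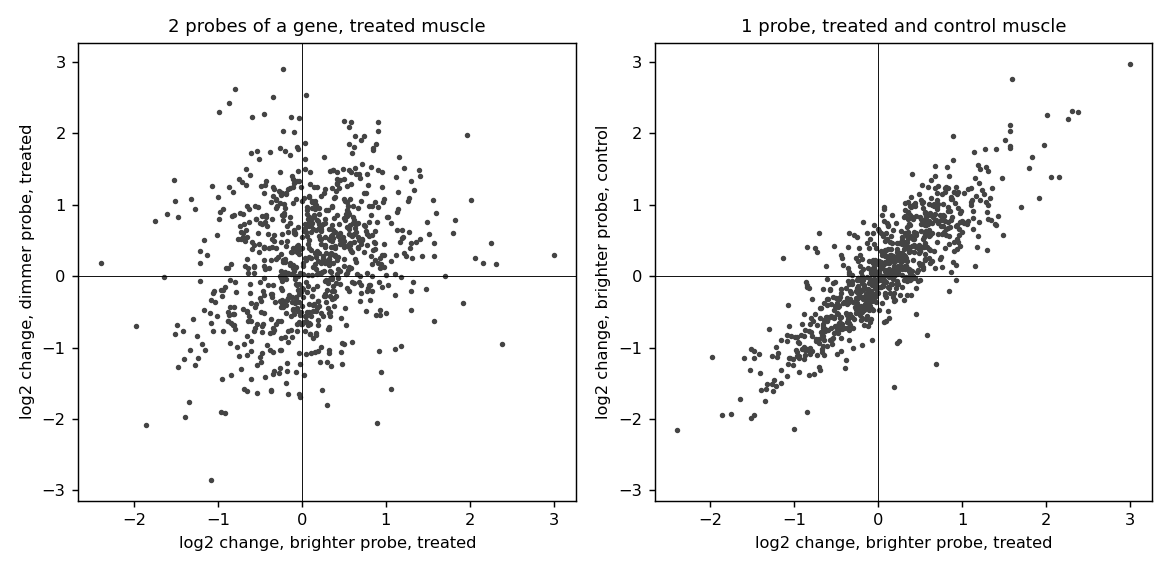
Log2 change from day 0 to day 14 for 835 genes with 2 tested probes: the dimmer against the brighter probe in treated muscle (left), and the brighter probe in control against treated muscle (right). The points scatter widely on the left (r = 0.22) and follow the diagonal on the right (r = 0.86).

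Probe by probe, control muscle gave a similar picture over the same storage time. There 3353 probes (21.7%) were higher and 2688 (17.4%) lower. Of the probes called in treated muscle, 68.9% of the higher and 83.9% of the lower were also called in control muscle in that direction, which is 56.3% and 56.8% of the control calls. Of the 4563 probes called in treated muscle, 4512 had the same sign in control muscle, and 0 were called in opposite directions. When the difference between the changes was tested as an interaction in limma, 0 of 15431 probes passed (0.0%), with 534 at an unadjusted p under 0.05. List medians had the same sign in treated and control muscle for complex I (-0.50 and -0.61) and endothelial markers (0.72 and 0.98). They were further apart for fibroblast and matrix genes (-0.99 and -0.16) and skeletal muscle fibre markers (0.58 and -0.05). Of 22 fat cell genes 3 fell (13.6%, beside 13.2% of all genes) and 0 rose in treated muscle. In control muscle 0 fell and 6 rose, where 21.7% of all probes were higher. The limma interaction passed for 0 of the 22, with 1 at an unadjusted p under 0.05. TTN changed by 3.00 in treated and 2.98 in control muscle. MB changed by 1.24 in treated and -0.03 in control muscle, and ACTA1 by 1.80 and 0.03. The limma interaction gave an unadjusted p of 8.3e-05 for MB and 0.00245 for ACTA1, and an adjusted p of 0.999 for both. The median SE of such a difference was 0.36, and a p that misses the threshold does not show that the changes were alike.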

How the data were processed

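Neck muscle RNA was measured on 1-colour arrays made by Agilent, 1 array per animal and day. Per the file headers, the authors extracted spots with Feature Extraction 9.5.1.1, and the deposited processed signal is a background-subtracted, detrended intensity. Per the submitters' processing notes the authors used R 2.11.1. The deposited series table holds linear intensity values normalized between arrays in a way not given in the sources used here, and served as an alternative. Other deposited per-spot marks (outlier, well above background) were used only as filters.

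Signals were taken to log2 and centred on the 75th percentile of each array. Outlier spots (935) and control spots (1417) were left out and spots of a probe averaged. A probe was tested when well above background on at least 5 of 20 arrays (15431 of 21475). Day 14 was compared with day 0 in limma 3.58.1 (lmFit, eBayes; statmod 1.5.0, data.table version 1.17.8, R 4.3.3) without a block, with Benjamini-Hochberg adjustment and a threshold of 0.05. The fit was also run on simulated data with independent noise per probe and no slide, scan day or animal effects. That run cannot show how the fit behaves under the batches of these data. Figures were drawn with matplotlib 3.10.9, and tables made with pandas 2.3.3 and numpy 2.4.6 in Python 3.11.15. Precision rests on the number of animals, since arrays hold no counts.

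Same-numbered arrays come from the same animal by the titles. The deviations of an animal's arrays from their group means correlated at -0.15, 0.28, 0.16, -0.06 and 0.21 in DE27, DE29, DE30, DE31 and DE32. A fit with the animal as a replicate block is given beside most of the named genes whose call it changes, and for some of the lists. A day 0 title with a shortened name (D31) was read as DE31. A description field that gives day 14 for every treated sample contradicts the titles and was not used.

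Probes were named by matching the deposited annotation to a RefSeq gene table (assembly ARS-UCD2.0): 9513 probes by gene number, 3337 by accession, 2853 by a symbol in the description and 381 by gene name, while 269 with conflicting names and 5122 without a match stayed unnamed. A gene stands by its brightest tested probe. Named are the 12 genes with the largest rise and the 12 with the largest fall among those that passed, changed the same way in all 5 animals and were above background on all arrays of at least 1 day; the 3 members with the smallest p of each list with at least 3 that passed in a direction; and a fixed set of muscle, stress and hormone genes. Some genes that this rule names are not reported here. Other members are named to complete a count, and were chosen after their values were seen. Choosing the brightest probe before applying this rule was settled after values were seen. The lists and genes were chosen with earlier results of these data known, so counts over them are descriptions. Alternatives were other scalings, background corrections, filters, blocks and leaving out each animal; the slide set block and the fits on single scan days were added after seeing the data.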

Additional observations from a re-analysis of the deposited data

Results flagged for a closer look

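In 10 of 294 groups of 5 values examined (each named gene and array measure on each day), 1 sample lay far from the other 4, by a gap larger than 0.71 of the whole range. Chance flags about 1 in 20 groups. At day 0, DE27 was far from the others for FKBP5 (log2 signal 4.97, the nearest being 8.56), IL1RL1 (11.57 against 13.51), LMOD2 (14.47 against 15.05) and CAPN2 (12.80 against 12.26). DE30 was high at day 0 for DNAJB1 (11.87 against 9.53) and MYH7 (17.70 against 17.49). At day 14, DE29 was high for MB (19.36 against 18.93), DE30 for GLRX2 (7.94 against 7.33) and DE32 for PLIN1 (3.77 against 3.11). Of the array measures, the log2 75th percentile relative to the spike-ins was low in DE32 at day 0 (9.38 against 9.68).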

How the results depend on the processing

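The counts moved with the scale and with single animals. For the storage change in treated muscle (2743 probes higher, 1820 lower), the higher probes numbered 7100 after normexp background correction, 6733 with no filter, 1757 with the series table and 329 with centring on the spike-ins, where 7752 were lower. Leaving out each animal in turn gave 1547 to 3330 higher and 881 to 2374 lower. In control muscle (3353 higher, 2688 lower) the counts were 5161 and 1554 after normexp correction, 644 and 6936 with the spike-ins and 5884 higher with no filter, and 1784 to 3736 and 1455 to 2926 without each animal. Of all calls 60.1% were higher, against 46.6% after quantile normalization, 52.7% with median centring, 48.8% with cyclic loess, 80.5% after normexp correction, 44.6% with the series table, 77.1% with no filter and 4.07% with the spike-ins. The median of all named genes, 0.03, was 0.30 after normexp correction and -0.93 with the spike-ins, and between -0.07 and -0.03 with the other scalings. The interaction called 0 probes in every setting run. With the animal as a replicate block 2471 probes were higher and 1531 lower, and of 105 named genes that passed 94 kept the call; 10 of the 11 losses stand beside their genes, as do those of genes named to complete a count. Of these 105 genes 59 passed without each animal in turn.

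Some named genes changed sign. After normexp correction, where the cause was not tested, the log2 change was 0.98 for ADIPOQ, 0.052 for ATF4, 0.049 for BCO2, 0.56 for EHHADH, 0.39 for EPDR1, 0.99 for FBXO31, 0.69 for HPRT1, 0.15 for HSP90AB1, 0.91 for MRPS23, 1.12 for PLIN1, 1.03 for TSC22D3 and 0.47 for ZFP91. Centring on the spike-ins shifts every change by -0.96, so each between 0 and 0.96 turns negative, which singles out no gene; examples are -0.83 for CAPN1, -0.73 for CTSD, -0.25 for DUSP2, -0.31 for FOSB, -0.11 for GBP4, -0.032 for MYH1, -0.22 for MYH7, -0.81 for NR3C1, -0.038 for PSMB8 and -0.003 for SRSF5.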

Other observations

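Some genes often used as references for quantitative PCR changed in storage. Of 17 measured, 4 fell (23.5%, beside 13.2% of all genes) and 1 rose (5.88%, beside 14.0%). The falls included HPRT1 (-1.91 ± 0.56 SE, limma adjusted p = 0.0245, and 0.0546 with the animal as a block), PGK1 and RPLP0 (-0.51 ± 0.18 SE, limma adjusted p = 0.0475, and 0.0791 with that block). The HPRT1 change was above 0 after normexp background correction. Of the 17, 1 passed as lower with the animal as a block, and with 1 animal left out 5, 1, 1, 1 and 1 in the order DE27, DE29, DE30, DE31, DE32. POLR2A, the large subunit of RNA polymerase II, rose (1.02 ± 0.21 SE). ACTB had 0.49 ± 0.31 SE and did not pass, though it was higher in all 5 animals. The small heat shock protein HSPB1 (0.08 ± 0.21 SE) and the constitutive chaperone HSPA8 (-0.81 ± 0.40 SE) did not pass either.

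Of 25 genes of amino acid and nucleotide catabolism 4 fell (16.0%, beside 13.2% of all genes) and 1 rose. With DE27 left out 8 fell, and with DE29 left out 2 fell. BCKDHB, of branched-chain amino acid breakdown (-1.78 ± 0.35 SE), the adenosine kinase ADK (-1.35 ± 0.26 SE) and ADSL, of purine synthesis (-0.93 ± 0.22 SE), fell in all 5 animals. ADA, which deaminates adenosine, was the member that rose. Among 18 satellite cell and myogenic genes 2 fell (11.1%, beside 13.2% of all genes). The transcription factor MEF2C (1.84 ± 0.22 SE) was the 1 that rose (5.56%, beside 14.0%). Among 20 genes of apoptosis the initiator caspase CASP8 rose (1.59 ± 0.52 SE, limma adjusted p = 0.0391, and 0.0701 with the animal as a block), and the mannose receptor MRC1 was the 1 of 16 macrophage markers that fell (-1.66 ± 0.38 SE).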
